A study of Homo sapiens with 4 samples.

Results

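The genes described here are 52 genes of the interferon response and of MHC class I antigen presentation, taken by symbol from the 28189 gene symbols of the deposited tables. They were compared between 4 RNA-seq libraries of the established human glioma line U87, with 2 libraries in each group. Cells of the control group, shNC, were infected with a lentivirus made from the empty FUGW-H1 vector, which by that description carries no hairpin, while the design text gives the control the name H1-RFP (WT). The sample titles call it shNC, a name often given to a control hairpin, so whether the controls carried a hairpin is uncertain, and a response to hairpin RNA that both groups shared would not show in the comparison. Cells of the other group, shPTPRN3, received a virus that expresses a short hairpin RNA (shRNA) directed at PTPRN, a membrane protein of dense-core vesicles in the receptor-type tyrosine phosphatase family. Both groups therefore went through infection and were grown alike in serum-containing medium, and a response to the virus that they share does not show in a difference between them. The study used 1 hairpin sequence, 1 cell line and no uninfected cells among the libraries analysed here. The design text calls the libraries biological replicates without saying whether cultures were separate, and every p-value here therefore reflects only how much these libraries vary.

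Cells sense double-stranded RNA in the cytoplasm through the RIG-I-like helicases and the oligoadenylate synthetases, and the helicases signal through MAVS and the IRF transcription factors to the interferon genes. Secreted type I interferon binds its receptor and, through the kinases JAK1 and TYK2, activates a complex with STAT2 and IRF9 that binds the interferon-stimulated response element of many promoters. MHC class I molecules present peptides to T cells, and their chains, peptide transporter and loading factors are among the genes that interferons induce. Small hairpin RNAs and viral vectors can trigger this pathway, and the comparison of shPTPRN3 with shNC serves as a check for such a response to the hairpin. The hairpin's targeting sequence is shown because it is the RNA whose sensing the comparison asks about:
shPTPRN3 hairpin: ggaagtctgtattcaggatgg

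Of the 52 genes, 40 had a mean of at least 1 FPKM (mapped fragments per length of transcript, relative to all mapped fragments of the library) over the 4 libraries and were tested, and 12 were below that level. None of the 40 passed limma's threshold of an adjusted p under 0.05, where 0.421% of the 11394 genes tested did. IFI44, an interferon-induced cytoplasmic protein gene, came closest, with a log2 fold change of 1.42 (shPTPRN3 over shNC) and an adjusted p of 0.103. At an unadjusted p under 0.05, limma listed 4 of the 40 as higher (IFI44, IRF7, OASL and MX2), against 5.66% of all genes, and 1 as lower (SP100), against 7.79% of all genes. Both shPTPRN3 values lay above both shNC values for 9 of the 40, or 22.5%, against 21.5% of all genes. They lay below both for 8, or 20%, against 23.1% of all genes, and the groups overlapped for 23. The shares of genes that did not overlap were thus near those over all genes in either direction. These counts include MX2 and GBP2, which reached the level for testing only through the group in which they were higher. After scaling per library, MX2 had means of 0.639 FPKM in shNC and 1.88 in shPTPRN3. GBP2, among the genes that lay lower, had means of 1.99 in shNC and 0.793 in shPTPRN3.

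The median log2 fold change of the 40 genes was 0.08, beside -0.01 over all genes tested, with 23 values above 0 and 17 below, from -0.99 (SP100) to 1.42 (IFI44). That median rested on single libraries: it was 0.28 without shNC replicate 1 and 0.32 without shPTPRN3 replicate 2, but -0.16 without shPTPRN3 replicate 1 and -0.08 without shNC replicate 2. The share of members at an unadjusted p under 0.05 likewise moved, from 5 of 40 (12.5%, against 13.5% of all genes) to 10 of 41 without shNC replicate 1 (24.4%, against 9.86% of all genes). It was 3 of 39 without shNC replicate 2 (7.69%, against 12.7%), 2 of 38 without shPTPRN3 replicate 1 (5.26%, against 12.1%) and 3 of 41 without shPTPRN3 replicate 2 (7.32%, against 7.26%). In these 4 fits limma called none of the tested members at an adjusted p under 0.05. For a single gene, an exact permutation test of 2 against 2 values cannot go below p = 0.333, two-sided.

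**Figure D1:**
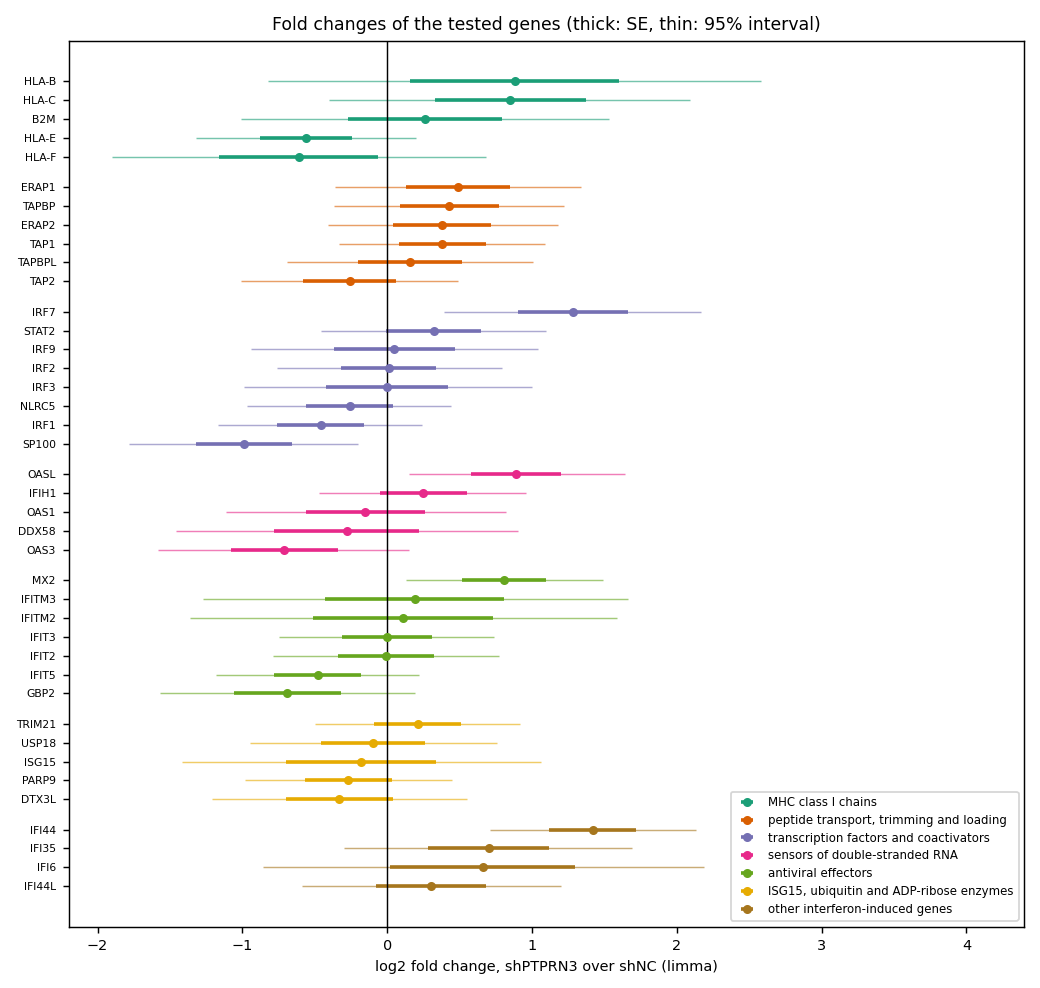
Log2 fold change of shPTPRN3 over shNC for the 40 tested genes by role (limma on log2 of scaled FPKM plus 1). Points are estimates, thick bars the SE and thin bars the 95% interval; the intervals of IFI44, IRF7, OASL and MX2 lie above 0 and that of SP100 below 0 before any adjustment over genes.

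Levels below are scaled FPKM, the deposited FPKM divided by 1 factor per library that brings the median gene to a common level. PTPRN, the target, had 27.6 and 19.8 scaled FPKM in shNC, against 4.96 and 3.62 in shPTPRN3, so both knockdown libraries were low, with a log2 fold change of -2.22 and an adjusted p of 0.0594 (limma). From the confidence intervals of single-exon genes, the depth was estimated at about 20 and 13.5 M fragments in shNC replicates 1 and 2 and 30.9 and 13.6 M in shPTPRN3 replicates 1 and 2. The labels call the cells glioma cells. Of 9 glial markers 7 were below the level for testing. The astrocyte genes GFAP and AQP4 and the oligodendrocyte lineage gene OLIG1 were listed at 0 in all libraries. OLIG2, of that lineage too, had 0.422 and 0.329 scaled FPKM in shNC, against 0.872 and 0.554 in shPTPRN3. The 2 tested markers were SOX9 (0.851 and 1.46 in shNC, 2.4 and 1.16 in shPTPRN3) and NES (2.35 and 4.01 in shNC, 1.3 and 0.972 in shPTPRN3). Neither passed limma's threshold. The mesenchymal gene VIM stood between 1193 and 2098 scaled FPKM. Of 8 markers of blood cells and microglia, which can carry MHC molecules at high levels, CD3E and MS4A1 were at or near 0 (at most 0.0539 and 0.0201 scaled FPKM). PTPRC, the pan-leukocyte antigen, reached at most 0.212 and CD14 at most 0.536. CSF1R, from the same list, was above the level for testing, with 2.17 and 1.65 in shNC and 1.51 and 0.698 in shPTPRN3. It was lower in both shPTPRN3 libraries but did not pass limma's threshold. The summed level of that list, 228 and 256 in shNC and 436 and 327 in shPTPRN3, was nearly all CD68, a lysosomal protein, and its part in the results was not tested. In such bulk libraries, fewer cells expressing a gene and less of its RNA per cell cannot be told apart.

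The interferon-stimulated response element was looked for as 2 copies of GAAA with any 2 bases between them, on both strands, in the 250 bases before the RefSeq gene start (GRCh38.p14). Of the 52 genes, 40 matched an entry of the promoter table, and 21 of those, or 52.5%, held the element, against 839 of all 27305 promoters, or 3.07%. A second element, the STAT dimer site TTCNNNGAA, was found in 8 of the 40, or 20%, against 6.78% of all promoters. A match is a description of the letters, not a binding site. The windows of 30 bases below are written in the direction of the gene, with the element in capitals, or its reverse complement where it lies on the opposite strand. They are shown as examples of the element in genes that lay at the top, in the middle and at the bottom of the fold changes, and in IFIT1, which was below the level for testing:
IFI44 (chr1:78649759-78649788, plus strand): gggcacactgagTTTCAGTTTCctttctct
IFI6 (chr1:27672266-27672295, minus strand): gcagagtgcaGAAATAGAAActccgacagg
TAP1 (chr6:32853813-32853842, minus strand): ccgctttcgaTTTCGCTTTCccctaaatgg
B2M (chr15:44711369-44711398, plus strand): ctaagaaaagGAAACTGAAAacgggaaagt
ISG15 (chr1:1013380-1013409, plus strand): tcgggaaaggGAAACCGAAActgaagccaa
OAS3 (chr12:112938444-112938473, plus strand): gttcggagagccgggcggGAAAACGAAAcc
IFIT1 (chr10:89392510-89392539, plus strand): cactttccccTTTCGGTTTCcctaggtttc
The genes with the element did not share a direction. Of the 21, 14 were tested, with 8 log2 fold changes above 0 and 6 below, a median of 0.22 and a range from -0.71 (OAS3) to 1.42 (IFI44). The 19 matched genes without it had 15 tested, with 9 values above 0 and 6 below and a median of 0.16. The 12 genes without an entry are in neither count. Among them were IRF7 (log2 fold change of 1.28), OASL (0.89), MX2 (0.81), IFITM2 (0.11), IRF2 (0.01) and IRF3 (0.00). The others were IFIT2 (-0.01), USP18 (-0.10), NLRC5 (-0.26), HLA-E (-0.56), GBP2 (-0.69) and the untested OAS2.

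MHC class I chains. The classical heavy chain genes HLA-B and HLA-C and the shared light chain gene B2M were among the most abundant transcripts of the set, and none of them separated the groups. HLA-B stood at 206 and 56.5 scaled FPKM in shNC, against 314 and 126 in shPTPRN3. HLA-C stood at 106 and 45.5 in shNC and at 165 and 96.0 in shPTPRN3. For each gene the lower shPTPRN3 library lay below the higher shNC library, so the groups overlapped, and the replicates of a group differed 3.64-fold and 2.48-fold for HLA-B. The log2 fold changes were 0.88 ± 0.72 (SE, adjusted p = 0.649) and 0.85 ± 0.52 (SE, adjusted p = 0.519) by limma. Without shNC replicate 2 the HLA-B value was -0.05, and without shNC replicate 1 it was 1.80. B2M stood at 389 and 200 scaled FPKM in shNC, against 424 and 263 in shPTPRN3, a log2 fold change of 0.26 with an adjusted p of 0.887 (limma) and a 95% interval from -1.01 to 1.53.

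The nonclassical genes had values below 0. HLA-E, whose product presents leader peptides of other class I chains to natural killer cell receptors, had 25.2 and 20.9 scaled FPKM in shNC, against 16.8 and 13.8 in shPTPRN3. Both shPTPRN3 libraries were lower than both shNC libraries, unlike for HLA-B and HLA-C, and the log2 fold change of -0.56 had an adjusted p of 0.484 (limma). HLA-F, a further nonclassical heavy chain gene, had 5.01 and 1.23 in shNC and 2.35 and 0.712 in shPTPRN3, with overlapping groups and a log2 fold change of -0.61. The direction of HLA-F turned without shNC replicate 1, to 0.11. The 5 chains together had a median of 0.26.

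The HLA values are sums over several rows of the tables, since hg38 carries alternate versions of the MHC region beside chromosome 6. Of the 52 genes, 11 had a row on an alternate or patch sequence. For B2M (chromosome 15), IRF7 (chromosome 11), IFI27 and IRF9 (both chromosome 14) that sequence lies outside the MHC region. For HLA-B, 98% to 98.5% of the FPKM lay on alternate sequences in every library, for HLA-C 97.4% to 99.4%, for HLA-E 87.9% to 88.9%, for TAP1 87.1% to 87.8% and for TAPBP 72% to 73.8%. On chromosome 6 itself (31353875 to 31357179), HLA-B had 4.37 and 0.91 FPKM in shNC, against 4.86 and 2.19 in shPTPRN3, as deposited. On the sequence GL000256v2_alt it had 115 and 29.3 in shNC and 187 and 65.6 in shPTPRN3, so the order of the 4 libraries was the same on both. HLA-C on chromosome 6 (31268749 to 31272136) had 1.33 and 1.16 FPKM in shNC, against 1.04 and 0.881 in shPTPRN3, the reverse order of the groups. With rows on alternate sequences left out, the log2 fold change of HLA-C was -0.19 and that of HLA-B 0.45. Reads shared among HLA genes and among these copies make the level of each single gene uncertain, and how the authors' programs divided them is not given in the sources used here.

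**Figure D2:**
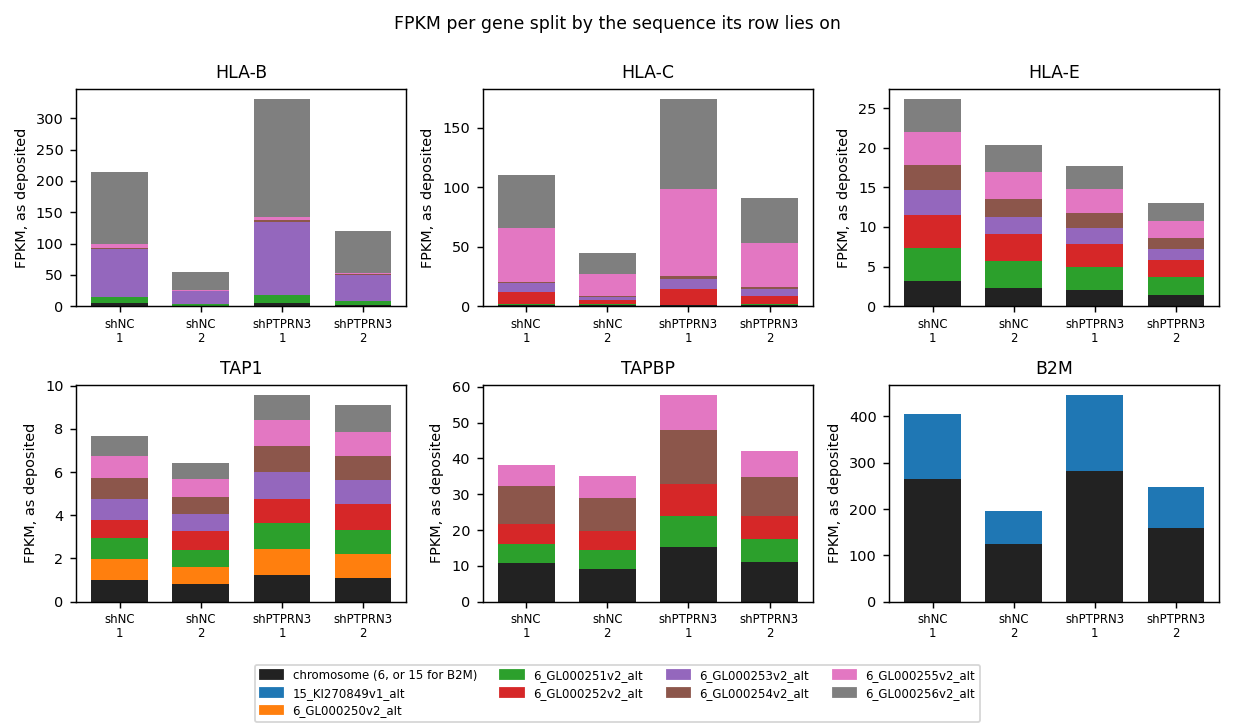
FPKM as deposited for 6 genes in each library, split by the sequence on which the row lies (black: chromosome 6, or 15 for B2M; colours: alternate sequences of hg38). Nearly all of HLA-B and HLA-C lies on alternate sequences, while 63.4% to 65.5% of B2M lies on chromosome 15.

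Peptide transport, trimming and loading. Both shPTPRN3 libraries lay above both shNC libraries for 4 of the 6 genes that supply and load the peptides, an order found in 21.5% of all genes, and none passed the test. TAPBP, tapasin, which bridges class I molecules to the transporter, had 36.9 and 36 scaled FPKM in shNC, against 54.9 and 44.5 in shPTPRN3. TAP1, a subunit of the peptide transporter, had 7.37 and 6.58 in shNC and 9.1 and 9.64 in shPTPRN3. The 2 groups did not overlap for these genes, and the replicates of a group lay closer together than for HLA-B and HLA-C. ERAP1, an aminopeptidase of the endoplasmic reticulum that trims peptides, had 5.01 and 9.11 in shNC and 9.72 and 10.2 in shPTPRN3, and its relative ERAP2 had 7.08 and 10.9 in shNC and 11.3 and 12.3 in shPTPRN3. For both aminopeptidases shNC replicate 1 was the low library and shNC replicate 2 lay close to the shPTPRN3 libraries. The log2 fold changes were 0.43 for TAPBP, 0.38 for TAP1, 0.49 for ERAP1 and 0.38 for ERAP2, with adjusted p from 0.597 to 0.677 by limma. TAP2, the other transporter subunit, had a value of -0.26, and TAPBPL, a tapasin-related editor of bound peptides, 0.16. The median over the 6 genes was 0.38, and the locus of ERAP1 overlaps that of CAST in the tables and that of TAP1 overlaps PSMB8-AS1.

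Transcription factors. IRF7, the factor that amplifies interferon production, had the largest difference of this group. It stood at 2.2 and 0.723 scaled FPKM in shNC, against 4.52 and 4.87 in shPTPRN3. Both shPTPRN3 libraries were high and close together, whereas the shNC libraries differed 3.05-fold. The means were 1.46 ± 1.05 and 4.7 ± 0.252 scaled FPKM (SD, n = 2), and the log2 fold change was 1.28 ± 0.38 (SE, limma, unadjusted p = 0.0117, adjusted p = 0.209). It was 1.72 without shNC replicate 1 and 0.83 without shNC replicate 2. The gene has a row on chromosome 11 (612555 to 615950) and another on an alternate sequence, which held 52.5% to 55% of its FPKM, and both rows were higher in shPTPRN3.

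SP100, a component of PML nuclear bodies that interferon induces, lay in the opposite direction. It had 19.1 and 23 scaled FPKM in shNC, against 8.43 and 12 in shPTPRN3, so both shPTPRN3 libraries were low. Its log2 fold change of -0.99 ± 0.33 (SE) had an unadjusted p of 0.021 and an adjusted p of 0.267 by limma. As deposited, its confidence intervals on chromosome 2 (230416156 to 230545604) were 18.4 to 21.3 and 20.5 to 24.3 FPKM in shNC and 8.11 to 9.63 and 10 to 12.5 FPKM in shPTPRN3, which cover error within a library only. IRF1, an activator of MHC class I and other interferon-gamma targets, had 3.66 and 3.09 in shNC and 1.95 and 2.4 in shPTPRN3. Its groups did not overlap either, at a log2 fold change of -0.46 (adjusted p = 0.538, limma).

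The factors that act at the start and at the end of the signal had values near 0. IRF3, which the RNA sensors activate, had 52.8 and 25.8 scaled FPKM in shNC, against 37.9 and 36.2 in shPTPRN3, a log2 fold change of 0.00. The spread of IRF3 lay within shNC, whose libraries enclosed both shPTPRN3 libraries, and its locus overlaps BCL2L12. STAT2, a subunit of the complex that binds the response element, had 11.8 and 8.23 in shNC and 13.4 and 11.7 in shPTPRN3, a value of 0.32 with overlapping groups. IRF9, its DNA-binding partner, had 0.05, IRF2, an antagonist of IRF1, 0.01, and NLRC5, the coactivator of MHC class I genes, -0.26. NLRC5 was lower in both shPTPRN3 libraries, with 3 and 3.73 in shNC against 2.53 and 2.73 in shPTPRN3. The median of the 8 factors was 0.01. These are transcript levels, and activation of the factors by phosphorylation is not measured by them.

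Sensors of double-stranded RNA. The genes of this group showed no common direction, with a median of -0.15 over the 5 tested of 7. DDX58, which encodes RIG-I, had 1.8 and 6.34 scaled FPKM in shNC, against 2.05 and 3.57 in shPTPRN3. The shPTPRN3 values lay between those of shNC, and the log2 fold change was -0.28 with a 95% interval from -1.46 to 0.90 (limma, adjusted p = 0.861). IFIH1, which encodes the related helicase MDA5, had a value of 0.25.

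The oligoadenylate synthetases, which double-stranded RNA activates, differed among themselves. OASL, a family member without synthetase activity that enhances RIG-I signalling, had 2.38 and 1.59 scaled FPKM in shNC, against 4.06 and 4.95 in shPTPRN3. Both shPTPRN3 libraries were higher, at a log2 fold change of 0.89 ± 0.31 (SE, limma, unadjusted p = 0.0254, adjusted p = 0.292). OAS3 had 1.68 and 3.21 in shNC and 1.5 and 0.678 in shPTPRN3. Here both shPTPRN3 libraries were lower, at -0.71 ± 0.37 (SE, adjusted p = 0.445, limma). OAS1 had 3 and 1.66 in shNC and 3.03 and 1.15 in shPTPRN3, with overlapping groups and a value of -0.15. OAS2 and the helicase gene DDX60 were below the level for testing, between 0.205 and 1.45 scaled FPKM.

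Antiviral effectors. The tested effectors had a median of 0.00 over 7 of 15 genes. MX2, a dynamin-like GTPase that restricts retroviruses, had 0.656 and 0.623 scaled FPKM in shNC, against 2.1 and 1.67 in shPTPRN3. Both shPTPRN3 libraries were higher, at a mean of 1.88 ± 0.305 against 0.639 ± 0.0234 (SD, n = 2) and a log2 fold change of 0.81 (limma, unadjusted p = 0.0255, adjusted p = 0.292), which the pseudocount of 1 makes smaller than the 2.95-fold ratio of the means. Its paralogue MX1 was below the level for testing, from 0.312 to 0.493.

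IFITM3, which blocks the fusion of viruses with endosomes, had the highest level of the effectors, with 74.6 and 31.1 scaled FPKM in shNC, against 93.7 and 32.6 in shPTPRN3. Its near-identical relative IFITM2 had 13.1 and 6.95 in shNC and 20.8 and 5 in shPTPRN3. Both genes were high in the libraries numbered 1 and low in those numbered 2, whichever the group, and the log2 fold changes were 0.19 and 0.11. Reads of these paralogues may be shared between them. As deposited, the FPKM of IFITM2 lay above its own confidence interval in shNC replicate 1 (13.6 against 8.59 to 12.4). The same held in shPTPRN3 replicate 1 (21.9 against 14.3 to 18.2).

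Some of the IFIT proteins bind viral RNA ends. IFIT3 had 4.6 and 5.39 scaled FPKM in shNC, against 5.8 and 4.26 in shPTPRN3, with a log2 fold change of 0.00 and a 95% interval from -0.75 to 0.74. IFIT5 had 4.1 and 4.78 in shNC and 2.97 and 2.83 in shPTPRN3. For IFIT5 both shPTPRN3 libraries were lower, at -0.48 (limma, adjusted p = 0.519), while IFIT2 had -0.01. IFIT1, usually among the genes most strongly induced by interferon, was below the level for testing, at 0.773 and 1.13 in shNC and 0.386 and 0.322 in shPTPRN3. GBP2, a guanylate-binding protein gene induced by interferon-gamma, had 1.15 and 2.83 in shNC and 1.02 and 0.567 in shPTPRN3, also with both shPTPRN3 libraries lower (-0.69, adjusted p = 0.463, limma).

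ISG15 and its enzymes. ISG15, a ubiquitin-like modifier that is among the classical interferon-induced transcripts, had 62.5 and 23.7 scaled FPKM in shNC, against 43.7 and 26.3 in shPTPRN3. Both shPTPRN3 values lay inside the range of shNC, and the log2 fold change was -0.18 with a 95% interval from -1.42 to 1.06 (limma, adjusted p = 0.923). As deposited, the FPKM of ISG15 lay above its own confidence interval in every library, so its level is uncertain. In shNC replicate 1 it was 64.9 with an interval from 41.4 to 50.3, and in shPTPRN3 replicate 1 46 with 28.9 to 35.3. USP18, which removes ISG15 from proteins and damps the receptor, had -0.10. TRIM21, a cytoplasmic antibody receptor and ubiquitin ligase, had 6.37 and 5.62 in shNC and 7.4 and 6.8 in shPTPRN3, a small difference with no overlap (0.21). DTX3L, a ubiquitin ligase, had 4.06 and 7.81 in shNC and 4.8 and 3.87 in shPTPRN3, and its partner PARP9, from a locus that overlaps it, had 3.47 and 4.49 in shNC and 3.05 and 3.19 in shPTPRN3. Of this pair PARP9 was lower in both shPTPRN3 libraries and DTX3L was not, with values of -0.27 and -0.33. The median of the 5 genes was -0.18.

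Other interferon-induced genes. The 4 tested genes of this group all had log2 fold changes above 0, with a median of 0.68, and IFI44 alone separated the groups. IFI44 lies on chromosome 1 (78649789 to 78664078) and had 4.51 and 4.4 scaled FPKM in shNC, against 12.9 and 14.4 in shPTPRN3. Replicates agreed within 1.03-fold in shNC and 1.12-fold in shPTPRN3, and both shPTPRN3 libraries were high. As deposited, the confidence intervals were 3.94 to 5.44 and 3.25 to 5.32 FPKM in shNC and 12.5 to 14.6 and 11.7 to 15.4 FPKM in shPTPRN3. The means of 4.46 ± 0.082 and 13.6 ± 1.08 scaled FPKM (SD, n = 2) differed 3.06-fold, and the log2 fold change was 1.42 ± 0.30 (SE, 95% interval 0.71 to 2.13). Its unadjusted p of 0.00217 ranked 239 among all genes tested, and the adjusted p was 0.103 (limma). Its neighbour and paralogue IFI44L had 1.04 and 0.853 scaled FPKM in shNC, against 2.32 and 0.737 in shPTPRN3. Only shPTPRN3 replicate 1 of IFI44L was high, so the groups overlapped, at a log2 fold change of 0.30 (adjusted p = 0.781, limma).

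IFI6, a mitochondrial and endoplasmic reticulum protein with antiviral effects, had 32.8 and 9.87 scaled FPKM in shNC, against 46.8 and 18.2 in shPTPRN3. IFI35, a leucine zipper protein, had 12.9 and 6.35 in shNC and 19.2 and 12.2 in shPTPRN3. Within each group the library numbered 1 was the higher for both genes, and the groups overlapped. The values were 0.66 (limma, adjusted p = 0.715) and 0.70 (adjusted p = 0.507), and that of IFI6 turned to -0.16 without shNC replicate 2.

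The 12 genes below the level for testing were DDX60, OAS2, IFIT1, MX1, RSAD2, CMPK2, BST2, IFITM1, ISG20, GBP1, IFI27 and XAF1. They lay between 0 and 1.45 scaled FPKM, and 3 of them (RSAD2, CMPK2 and IFITM1) were listed at 0 in at least 1 library. RSAD2, which encodes viperin, reached at most 0.0584, and CMPK2, its neighbour on the genome, at most 0.0298. Several of these genes, among them IFIT1, MX1, RSAD2 and IFI27, are commonly used as readouts of an interferon response. The summed level over all 12 genes was 4.1 and 4.37 scaled FPKM in shNC, against 4.52 and 3.25 in shPTPRN3. The sums of the groups overlapped, but they join opposite orders. IFIT1 and GBP1 (0.996 and 0.862 in shNC, 0.436 and 0.141 in shPTPRN3) were lower in both shPTPRN3 libraries. BST2, IFITM1 and ISG20 were higher in both, at no more than 0.479 scaled FPKM, and the groups overlapped for the rest. For BST2 and IFITM1 the deposited confidence intervals reached 0 in both shNC libraries. No share over all genes is set beside these orders near 0, so they are not read as a result.

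**Figure D3:**
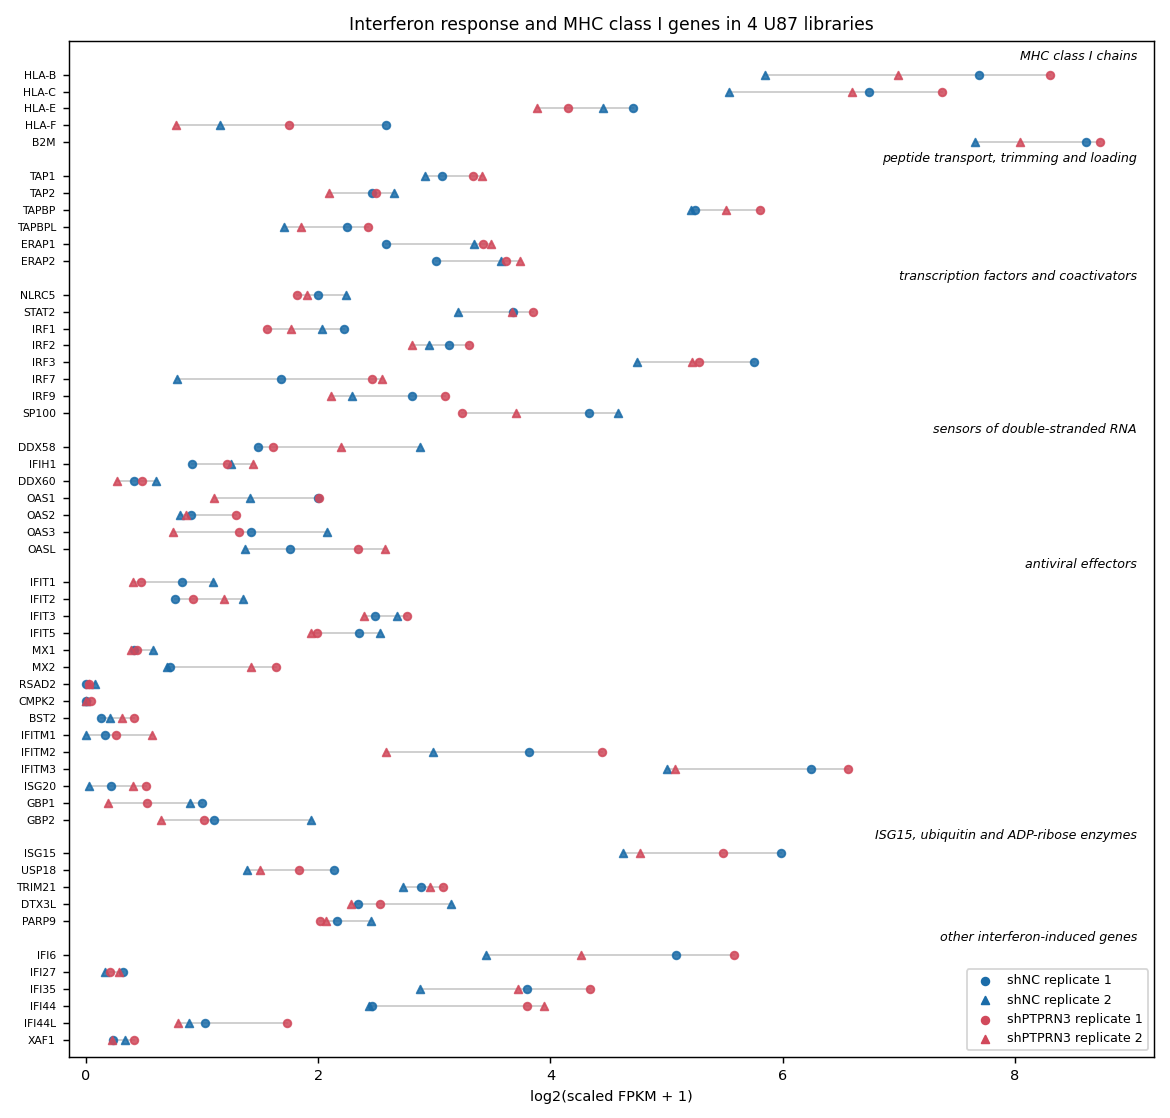
Level of each of the 52 genes in each library as log2 of scaled FPKM plus 1, grouped by role. Blue marks shNC and red shPTPRN3, with circles for replicate 1 and triangles for replicate 2. Among the 40 tested genes, red lies above blue for 9 (22.5%, against 21.5% of all genes), including IFI44, IRF7, OASL and MX2. Red lies below blue for 8 (20%, against 23.1% of all genes), including SP100. Several abundant genes such as HLA-B, IFITM3 and IFI6 separate circles from triangles instead.

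For most of these genes, as for most of all genes tested, libraries of the same group differed by more than the groups did. The measure sets the larger of 2 differences between single libraries against a difference between group means. In 27 of the 40, or 67.5%, the larger of the 2 differences between replicates exceeded the difference between groups, against 66.6% of all genes tested. The median ratio of replicates was 1.6 in shNC and 1.41 in shPTPRN3 (1.43 and 1.35 over all genes above 0). Replicates differed by more than 2-fold in 13 of the 40 in shNC, beside 2094 of 11228 tested genes above 0. In shPTPRN3 they did so in 9 of the 40, beside 1522 of 11210. In 21 of the 40 genes both libraries numbered 1 were higher than those numbered 2 of the same group, and in 8 both were lower, beside 4045 and 3891 of all 11394. HLA-B, HLA-C, B2M, IFITM3, IFI6 and ISG15 were among the 21. Beside this, the libraries numbered 1 had the higher depth in each group, and across 11013 genes the difference between replicates correlated with transcript length (Spearman's rho of -0.215 in shNC and -0.132 in shPTPRN3, a description, since genes share their libraries). The part of depth in the values was not tested. With the trend on length removed, the median of the 40 was 0.07 and limma called none, with a lowest adjusted p of 0.0856 for IFI44.

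**Figure D4:**
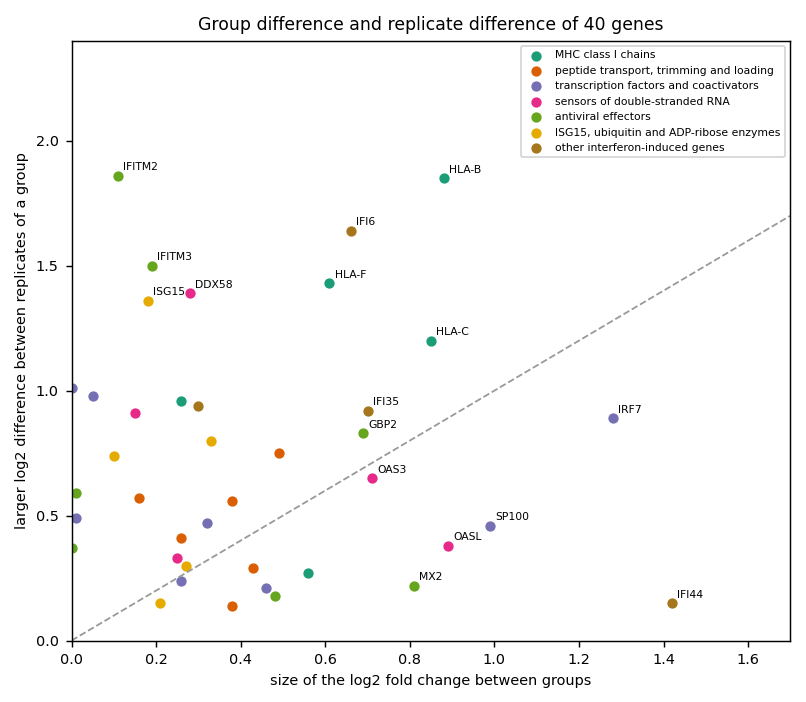
For each of the 40 tested genes, the size of the log2 fold change between groups (horizontal) against the larger log2 difference between replicates of a group (vertical); the dashed line marks equality. The 27 genes above the line (67.5%, against 66.6% of all genes tested) include HLA-B, IFI6 and IFITM2, while IFI44 lies far below it, at 1.42 and 0.15.

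Upstream and beside these genes, 108 further symbols of the pathway were examined, of which 106 had rows and 70 were tested. None was called by limma over all genes, where 0.421% of all genes were. At an unadjusted p under 0.05, limma listed 3 as higher (5.66% of all genes) and 3 as lower (7.79% of all genes), and the median was 0.05. Of 10 interferon genes, among them IFNB1, IFNG and IFNL1, 9 were listed at 0 in all 4 libraries and IFNL1 stood at 0.129 scaled FPKM in shNC replicate 1 and at 0 in the others. An exact 0 in these tables can be a failed estimate, and without counts it gives no upper limit. The sensor gene TLR3 reached at most 0.901.

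Of the receptors and kinases, IL10RB, a chain of the lambda interferon receptor, had 15.1 and 14.6 scaled FPKM in shNC, against 26 and 23.6 in shPTPRN3, and IFNGR1 had 4.48 and 3.25 in shNC and 6.44 and 7.26 in shPTPRN3. Both genes were higher in both shPTPRN3 libraries, each at a log2 fold change of 0.70 (adjusted p of 0.389 and 0.401, limma). PTPN2, a phosphatase that acts on the JAK kinases, had 10.4 and 9.8 in shNC and 6.59 and 4.63 in shPTPRN3, a value of -0.76 (limma, adjusted p = 0.369), and the inhibitor SOCS1 had 0.23. In contrast to IL10RB and IFNGR1, PTPN2 was lower in both shPTPRN3 libraries.

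The 13 tested sensing genes had a median log2 fold change of 0.08, with 9 values above 0 and 4 below. Of these, the kinase gene TBK1 had 8.82 and 11.8 scaled FPKM in shNC, against 5.7 and 9.33 in shPTPRN3. Its groups overlapped, at a log2 fold change of -0.43. EIF2AK2, which encodes the RNA-activated kinase PKR and was picked out for its role after its values were seen, had 3.97 and 9.7 in shNC and 3.92 and 6.05 in shPTPRN3. The groups of EIF2AK2 overlapped (-0.31, limma, adjusted p = 0.818). Among the further interferon-stimulated genes, PLSCR1, a phospholipid scramblase, had 7.68 and 7.72 in shNC and 2.71 and 1.44 in shPTPRN3. It lay lower in both shPTPRN3 libraries, at -1.53 ± 0.33 (SE, limma, adjusted p = 0.112), as did the RIG-I ubiquitin ligase gene TRIM25 at -0.96 (adjusted p = 0.306).

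Among the further antigen presentation genes, MICA, a stress-induced ligand of the receptor NKG2D on natural killer cells, had 26.6 and 17.8 scaled FPKM in shNC, against 73.3 and 60.3 in shPTPRN3. Both shPTPRN3 libraries were high, at a log2 fold change of 1.57 ± 0.36 (SE; adjusted p = 0.123, limma), from a level that sums its rows on chromosome 6 and on alternate sequences. CD74, the invariant chain of MHC class II, had 42.6 in shNC replicate 1, was listed at 0 in shNC replicate 2, and had 41.6 and 11.4 in shPTPRN3. The groups of CD74 overlapped.

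**Figure D5:**
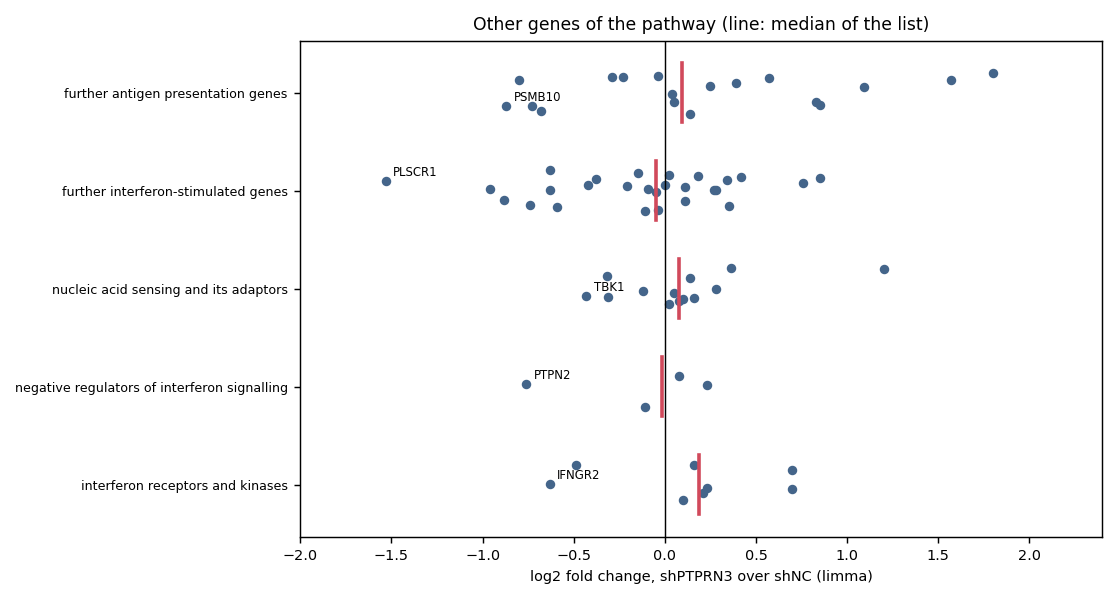
Log2 fold change of shPTPRN3 over shNC (limma) for the 70 tested further genes of the pathway, by list, with the median of each list as a line and the gene with the lowest value of each list named. The lists spread to both sides of 0, from -1.53 (PLSCR1) to 1.80 (CD74).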

How the data were processed

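Per the labels, the library kit was KAPA Stranded mRNA-Seq. The submitters' processing notes name hg38, Cufflinks 2.2.1.2, STAR 2.6.0b-1 and FastQC 0.72, while annotation, strand setting and the treatment of shared reads are not given. Each library has a deposited table of FPKM for 33646 gene rows, with a confidence interval and status, per the file headers. They hold no counts, so no count test was used. Depth was estimated from interval widths, assuming fragments of 200 bases, and is rough.

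The 651 rows without status OK in every library were left out (none of the members' rows), and rows were summed per symbol, alternate sequences included. FPKM were scaled by median-ratio factors (1.04, 0.974, 1.05 and 0.943 over 9988 genes). Genes averaging 1 FPKM or more over the libraries were tested with limma 3.58.1 (R 4.3.3) on log2(scaled FPKM + 1), eBayes with a trend, two-sided, Benjamini-Hochberg over all 11394 genes, with 2 residual and 4.94 prior degrees of freedom. The pseudocount understates changes of low genes. In each role group the 3 most abundant genes and the 3 with the largest fold changes are named with library values, and of each further list the 2 largest, of which 1 gene is not reported here; other members were added to account for all. The code was tested on simulated data. The members and lists were chosen with earlier results of these data known. Alternatives covered scaling, pseudocount, filters, rows, eBayes settings, transcript length, a replicate block and leaving out each library. Joins and figures used Python 3.11.15, pandas 2.3.3, numpy 2.4.6 and matplotlib 3.10.9.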

Additional observations from a re-analysis of the deposited data

How the results depend on the processing

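Limits. With 2 libraries a group, residual degrees of freedom are 2, the tables hold no counts, and depth, lowest at about 13.5 M fragments in shNC replicate 2, limits what can be said of genes near 1 FPKM. A fit without a library leaves 1 library in that group, which is then assumed to vary like the others. None of the members was called at an adjusted p under 0.05 by limma in 17 of 18 alternatives. The number of all genes called, 48 (9 higher, 39 lower), was 31 on FPKM as deposited, 30 on TPM (10 higher, 20 lower), 23 with a pseudocount of 0.1, 8 among genes averaging 5 FPKM or more, 219 with genes listed at 0 left out, 26 with eBayes without a trend and 160 with robust eBayes. With low genes kept, limma called 0, and 2163 genes (11%) had an unadjusted p under 0.05. Of the 52 members, 9 (17.3%) did so in that fit. Leaving out a library gave 58 to 199 genes and a median of the members from -0.16 to 0.32, against 0.08 with all 4. The other alternatives kept that median between 0.03 and 0.24, where its value in the replicates varied with an SD of 0.195. The cause of these shifts was not tested.

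With the replicate number as a block (replicate block), limma called 2168 of the 11394 genes tested, against 48 without it. It called 6 of the 40 tested members (HLA-B, HLA-C, IFI44, IRF7 and OASL higher, SP100 lower), against 0 without the block. Of the 70 tested further pathway genes it called 15, also against 0. At an unadjusted p under 0.05, limma with the block listed 13 of the 40 members, or 32.5%, against 31.7% of all genes. Across genes, the difference between replicates correlated at r = 0.519 between the groups. Adjusted p with the block was 0.000263 for IFI44, 0.00314 for IRF7 and 0.00758 for SP100. Over the other 17 alternatives that of IFI44 ran from 0.0652 to 0.403, with a log2 fold change from 1.36 to 1.62. The labels do not say whether the numbers pair the libraries and 2 pairs do not settle it, so pairing was not assumed.

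Of the 40 tested members, 19 had a fold change of at least 1 SE, and only for these was a turn of direction counted. It turned in 4: HLA-C at -0.19 with alternate sequences left out, and 3 genes on leaving out a library. HLA-B ran from -0.05 (without shNC replicate 2) to 1.80, IFI6 from -0.16 (without shNC replicate 2) to 1.48, and HLA-F from -1.34 to 0.11 (without shNC replicate 1). The other 15 kept their direction in every alternative in which they were tested; the cause of the 4 turns was not tested.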
